A study of Schmidtea mediterranea with 16 samples.

Results

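The genes described here were 200 of the 26833 genes counted in planarian X1 cells, or 0.745%, chosen by their values as genes that were higher after irradiation in control RNAi cells and gained much less under atm(RNAi). The rule took reads per 1000000 reads counted in genes (CPM) and worked on log2(CPM + 1). A gene needed a mean of at least 0.5 CPM in both unirradiated groups, all 4 irradiated unc-22(RNAi) libraries above the other 12 libraries, and a gain of at least 1 with irradiation in unc-22(RNAi). Its gain with irradiation in atm(RNAi) also had to be under 0.5 times the gain in unc-22(RNAi), and at most 200 genes were kept, those with the largest difference between the gains. The levels, gains and differences between groups below were selected on these same counts, so they describe the chosen genes and test nothing.

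The series held 16 libraries of poly(A) RNA from X1 cells of Schmidtea mediterranea, 4 in each of 4 groups. Irradiated atm(RNAi) and irradiated unc-22(RNAi) cells came after a dose of 2000 rads, at 1 day after it, and unirradiated atm(RNAi) and unirradiated unc-22(RNAi) cells had no dose. All groups received RNAi, so no group was free of double-stranded RNA, and all cells were taken by the X1 gate. Knockdown reaches the whole animal and is not limited to the sorted cells. The labels number the replicates but do not tie them to separate animals or sorts, so the p-values below measure the spread between these libraries, which may be technical.

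Planarians renew and regrow their tissues from neoblasts, their dividing stem cells, which are very sensitive to radiation. The X1 gate of flow cytometry collects cells with more than the resting DNA content and holds mainly neoblasts in cycle. The kinase ATM is activated by DNA double-strand breaks. In other animals it phosphorylates checkpoint and repair proteins, and part of the transcription that follows irradiation depends on it. The RNAi control unc-22 is a nematode muscle gene. In bulk RNA of a sorted gate, fewer cells of a type and less RNA per cell cannot be told apart.

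The files give genes as dd_Smed_v6 identifiers of a transcriptome assembly and do not pair them with names. No function is therefore given for any gene, and the level of the atm transcript and the markers of neoblasts and other cells were not analysed here. Sequences of the genes were not used here either.

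Library totals ran from 6.99 to 26.5 M reads counted in genes (M, 1000000 reads). The mean total was 19.5 M ± 3.80 in irradiated atm(RNAi), 11.3 M ± 3.42 in irradiated unc-22(RNAi), 21.0 M ± 2.92 in unirradiated atm(RNAi) and 21.6 M ± 3.64 in unirradiated unc-22(RNAi) (SD, n = 4 each). The share of reads left unmapped was 39.7% ± 2.85, 61.4% ± 8.84, 30.6% ± 5.43 and 38.2% ± 6.38 in the same order of groups (SD, n = 4 each). The irradiated unc-22(RNAi) group, in which the chosen genes were highest by the rule, thus had the fewest counted and the most unmapped reads. The part of these differences in the values below was not tested.

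1 library stood apart from its group. Irradiated atm(RNAi) replicate 1 was the lowest of its group for 166 of the 200 genes (83%), against 33.1% of all genes over the floor of 0.5 CPM and 79.9% of the other genes that were higher after irradiation in unc-22(RNAi). Of the 200 genes, 48 were below all 4 unirradiated atm(RNAi) libraries in that replicate, 112 lay within their range and 40 were above them. Of all 14105 genes over the floor, 4863 were below, 6488 within and 2754 above. Of the 2041 other genes that were higher after irradiation in unc-22(RNAi), 594 were below, 963 within and 484 above. These positions were thus not particular to the 200. The library was not at the unirradiated level for every transcript. dd_Smed_v6_12394_0_1, which is not among the 200 genes and was picked after its values were seen, had 141, 121, 119 and 152 CPM in irradiated atm(RNAi), and 182, 71.1, 183 and 116 CPM in irradiated unc-22(RNAi). It stood between 4.39 and 5.33 CPM in unirradiated atm(RNAi) and between 4.59 and 7.30 CPM in unirradiated unc-22(RNAi). Results that rest on irradiated atm(RNAi) are given with and without replicate 1.

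The steps of the rule left 14105 genes over the floor, 441 with all irradiated unc-22(RNAi) libraries on top, 335 with a gain of at least 1, and 302 with the lower gain in atm(RNAi). The limit of 200 then left out 102 genes. The last gene kept, dd_Smed_v6_4304_0_1, gained 0.35 in atm(RNAi) and 1.42 in unc-22(RNAi) on the log2(CPM + 1) scale. The first one left out, dd_Smed_v6_2732_0_1, gained 0.19 and 1.25, so the limit cut through genes with nearly equal differences of 1.07 and 1.06. Next to the other thresholds the values were as close. The gain in atm(RNAi) was 49.9% of the gain in unc-22(RNAi) just inside and 50.3% just outside, the gain in unc-22(RNAi) was 1.01 inside and 0.99 outside, and the lower unirradiated mean was 0.503 CPM inside and 0.490 CPM outside.

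The median level over the 200 genes was 2.89, 9.53, 6.59 and 5.46 CPM in irradiated atm(RNAi) replicates 1 to 4. It was 14.1, 22.9, 16.5 and 17.4 CPM in irradiated unc-22(RNAi), 3.29, 3.05, 3.72 and 3.56 CPM in unirradiated atm(RNAi), and 3.15, 3.41, 2.86 and 2.47 CPM in unirradiated unc-22(RNAi). Irradiated unc-22(RNAi) libraries were on top by construction, irradiated atm(RNAi) replicates 2 to 4 lay between them and the unirradiated libraries, and replicate 1 lay among the unirradiated ones. As means of these library medians, the groups stood at 6.12 ± 2.75, 17.7 ± 3.74, 3.41 ± 0.295 and 2.97 ± 0.399 CPM (irradiated atm(RNAi), irradiated unc-22(RNAi), unirradiated atm(RNAi), unirradiated unc-22(RNAi); SD, n = 4 each). Between 0 and 5 of the 200 genes had no read in any 1 library.

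**Figure D1:**
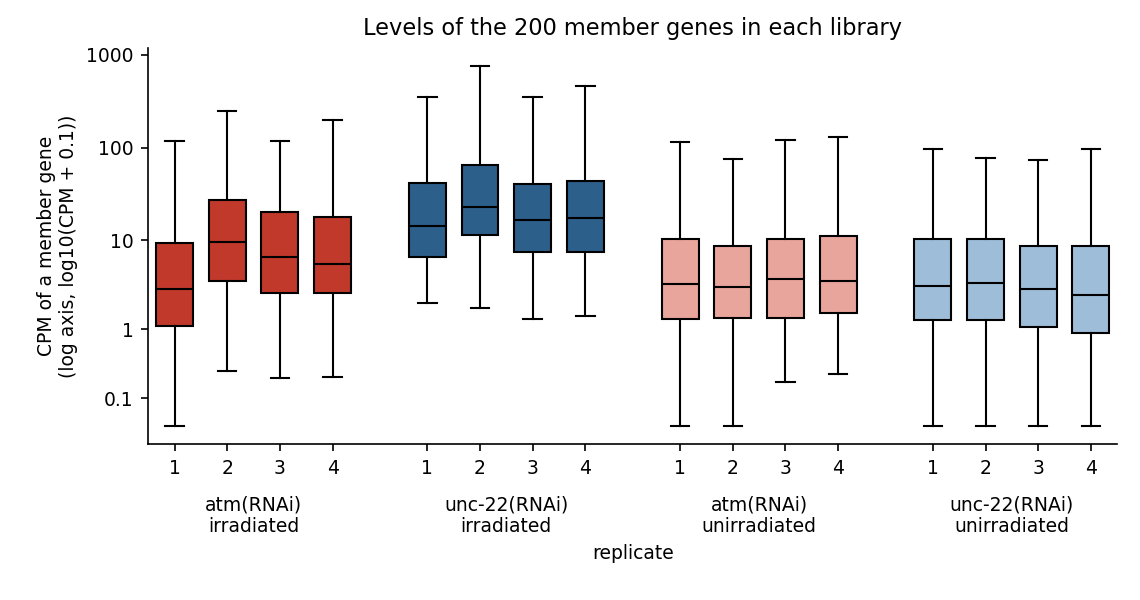
Levels of the 200 genes in each of the 16 libraries, with CPM + 0.1 on a log10 axis. Boxes span the quartiles over genes, the line is the median, whiskers reach 1.5 times the box and genes beyond them are not drawn. The medians of irradiated atm(RNAi) run from 2.89 to 9.53 CPM, those of irradiated unc-22(RNAi) from 14.1 to 22.9 CPM and those of the unirradiated libraries from 2.47 to 3.72 CPM.

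The label of these genes is that their rise needs atm, but the rule asked only for a smaller gain in atm(RNAi). With irradiation, the median gain on the log2(CPM + 1) scale was 0.60 in atm(RNAi) and 2.03 in unc-22(RNAi), where it amounts to 4.08-fold of CPM + 1. The quartiles of the gain were 0.23 and 0.84 in atm(RNAi) and 1.66 and 2.54 in unc-22(RNAi). The gain in atm(RNAi) was a median of 26.6% of that in unc-22(RNAi), with quartiles of 11.9% and 36.0%. A gain at or below 0 in atm(RNAi) was found in 22 of the 200 genes, and a gain of at least 1, or 2-fold of CPM + 1, in 27. How far atm was knocked down was not analysed here, so whether the gain needs atm was not tested. The 200 are therefore described as genes with a reduced gain under atm(RNAi).

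Without irradiated atm(RNAi) replicate 1, the median gain in atm(RNAi) was 0.82, or 37.8% of that in unc-22(RNAi), and 12 genes had a gain at or below 0. Of the 200 genes, 162 then still had a gain under 0.5 times that in unc-22(RNAi) and 38 did not. These values come from the libraries that chose the genes, so that most genes still met the limit is partly set by the choice.

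Library by library, the median gain over the unirradiated mean of the same RNAi group was -0.07, 1.09, 0.69 and 0.56 in irradiated atm(RNAi) and 1.82, 2.33, 1.87 and 1.95 in irradiated unc-22(RNAi). No irradiated atm(RNAi) library reached the lowest irradiated unc-22(RNAi) library. The unmapped share in the same libraries was 36.9%, 43.7%, 38.8% and 39.6% in irradiated atm(RNAi) and 65.6%, 70.9%, 50.5% and 58.5% in irradiated unc-22(RNAi). In each group the library with the highest median gain, replicate 2, also had the highest unmapped share, and its part in the gain was not tested. Replicate 2 was the highest irradiated atm(RNAi) library for 139 of the 200 genes (69.5%) and the highest irradiated unc-22(RNAi) library for 134 (67%). In the other genes that were higher after irradiation in unc-22(RNAi) these shares were 68.0% and 72.9%. Over all genes over the floor they were 38.6% and 38.0%.

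**Figure D2:**
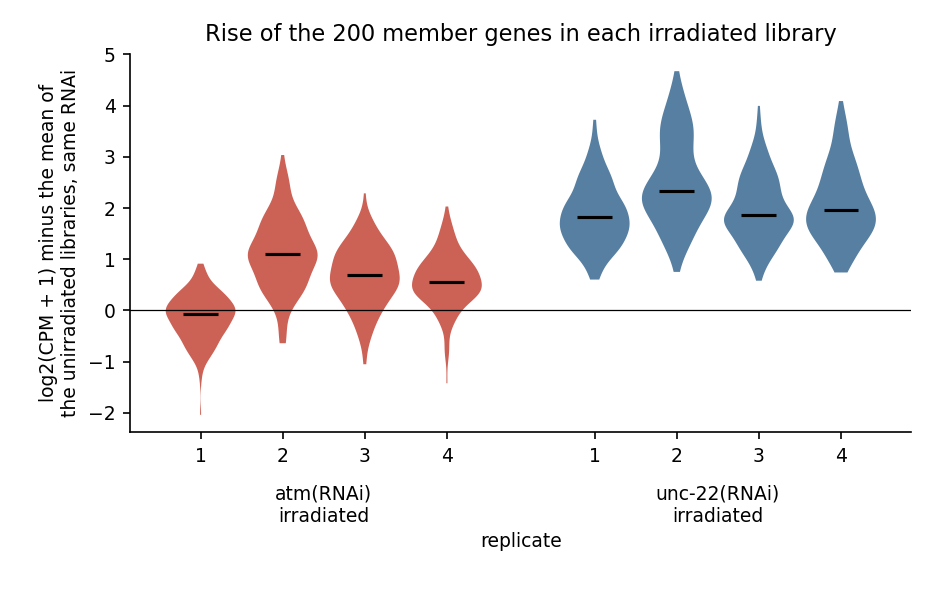
Gain of the 200 genes in each irradiated library over the unirradiated mean of its RNAi group, in log2(CPM + 1). Violins show the distribution over genes and lines the medians, which run from -0.07 to 1.09 in irradiated atm(RNAi) and from 1.82 to 2.33 in irradiated unc-22(RNAi).

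The names of the deposited files give 2 lanes, with 2 libraries of each group in each. The median gain was 0.57 in atm(RNAi) and 2.02 in unc-22(RNAi) in lane 7, and 0.56 and 2.00 in lane 8. In each lane all 200 genes gained less in atm(RNAi) than in unc-22(RNAi), which the choice of the genes on the same libraries brings about.

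Fitted with edgeR over 17843 genes, all 200 chosen genes among them, 193 of the 200 passed an adjusted p of 0.05 as risen with irradiation in unc-22(RNAi), where 23.8% of all tested genes did. With irradiation in atm(RNAi), 28 rose, beside 2.42% of all tested genes. Between irradiated atm(RNAi) and irradiated unc-22(RNAi), 135 were lower in atm(RNAi), beside 3.36% of all tested genes. The interaction, which is the gain in atm(RNAi) minus the gain in unc-22(RNAi), was called negative for 53, beside 0.504% of all tested genes. The rule used all of these contrasts, so nothing is read from these counts. The median edgeR log2 fold changes over the 200 genes were 0.73 for irradiation in atm(RNAi), 2.24 for irradiation in unc-22(RNAi), -1.39 for irradiated atm(RNAi) against irradiated unc-22(RNAi), and -1.51 for the interaction.

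The counts for the last 3 of these contrasts rested on single libraries and on the fit. Fitted on the irradiated groups alone, 0 of the 200 genes were called between irradiated atm(RNAi) and irradiated unc-22(RNAi). In that fit 0 of all 15486 tested genes were called, so the count is not particular to the 200. There 194 of the 200 had an unadjusted p under 0.05 in edgeR. The fit over all groups called 135 and had 180 at an unadjusted p under 0.05. The rule put every irradiated unc-22(RNAi) library above every irradiated atm(RNAi) one, which favours small p-values here. The share of all tested genes at an unadjusted p under 0.05 was not counted, so nothing is read from the 194 and 180. Without irradiated atm(RNAi) replicate 1 the count for that contrast was 87, beside 178 of all 18622 tested genes lower in atm(RNAi). The interaction count was 116 with DESeq2, beside 486 of all 17843 tested genes called negative. Leaving out irradiated atm(RNAi) replicates 1 to 4 gave 14, 90, 22 and 20 interaction calls among the 200. Over all tested genes 18, 360, 41 and 32 were called negative in these fits. Leaving out unirradiated atm(RNAi) replicates 1 to 4 gave 11, 25, 11 and 5, beside 18, 37, 16 and 9 of all. Without irradiated unc-22(RNAi) replicate 4 the count was 24, beside 38 of all tested genes. Without unirradiated unc-22(RNAi) replicates 1 to 4 it was 25, 25, 12 and 17, beside 37, 39, 24 and 34. With 1 library left out at a time, the interaction count ranged from 5 to 90, beside 9 to 360 of all tested genes. These fits tested 18472 to 18776 genes.

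With DESeq2, 65 of the 200 genes rose with irradiation in atm(RNAi) and 1 fell, beside 1444 of all 17843 tested genes risen. The edgeR count that rose was 81, 3, 7 and 16 without irradiated atm(RNAi) replicates 1 to 4. Over all tested genes 1520, 93, 103 and 434 rose in these fits. Without unirradiated atm(RNAi) replicates 1 to 4 the count was 3, 2, 5 and 4, beside 77, 81, 81 and 95 of all tested genes. Without irradiated unc-22(RNAi) replicate 2 it was 43, beside 836. Without unirradiated unc-22(RNAi) replicate 1 it was 18, beside 283. For irradiation in unc-22(RNAi) the count lay between 184 and 195 with 1 library left out at a time. Over all tested genes 3540 to 4610 rose there.

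**Figure D3:**
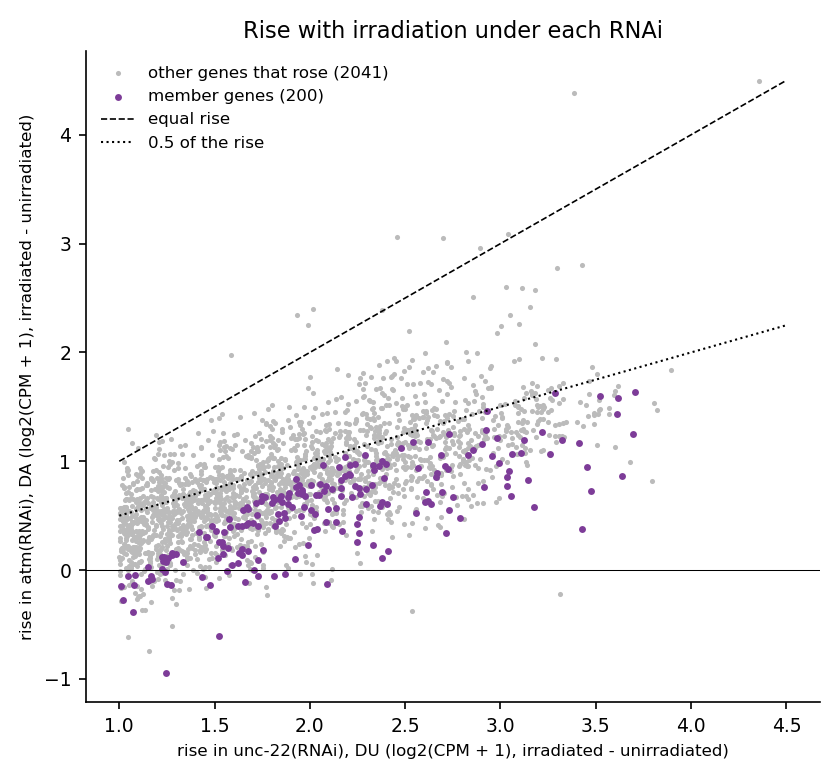
Gain with irradiation in atm(RNAi) against the gain in unc-22(RNAi) for each gene, in log2(CPM + 1), for the 200 genes and for the other genes higher after irradiation in unc-22(RNAi). The lines mark equal gains and the limit of 0.5 times. The 200 genes lie under that limit by the rule, 178 of them above 0 and 22 at or below it.

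In atm(RNAi) 178 of the 200 genes had a higher mean log2(CPM + 1) after irradiation than before, and 175 followed the order irradiated unc-22(RNAi), irradiated atm(RNAi), then both unirradiated groups. All 4 irradiated atm(RNAi) libraries were above all 4 unirradiated atm(RNAi) libraries in 32 genes (16%), where 6.38% of all genes over the floor were. Without replicate 1, irradiated atm(RNAi) was above unirradiated atm(RNAi) in 116 genes (58%), where 16.6% of all genes over the floor were. The rule used these libraries, and it asked for a smaller gain in atm(RNAi), not for none.

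The genes divided by their behaviour in atm(RNAi). In the 32 genes whose atm(RNAi) libraries were separated, the median gain was 0.89 in atm(RNAi) and 2.17 in unc-22(RNAi). Median levels there were 14.6 CPM in irradiated atm(RNAi), 37.7 CPM in irradiated unc-22(RNAi), 8.20 CPM in unirradiated atm(RNAi) and 6.93 CPM in unirradiated unc-22(RNAi). In the 146 genes with a gain above 0 and overlapping libraries, the median gain was 0.60 in atm(RNAi) and 2.09 in unc-22(RNAi). The 22 genes with a gain at or below 0 were lower expressed, with median levels of 1.76 CPM in irradiated atm(RNAi), 5.91 CPM in irradiated unc-22(RNAi), 2.25 CPM in unirradiated atm(RNAi) and 1.89 CPM in unirradiated unc-22(RNAi). Their median gain was -0.10 in atm(RNAi) and 1.25 in unc-22(RNAi).

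By level in irradiated unc-22(RNAi), the gains were as follows. In the 22 genes under 5 CPM in irradiated unc-22(RNAi), the median gain was 0.02 in atm(RNAi) and 1.36 in unc-22(RNAi). In the 87 genes from 5 to 20 CPM it was 0.52 in atm(RNAi) and 2.04 in unc-22(RNAi), in the 70 genes from 20 to 100 CPM it was 0.69 and 2.20, and in the 21 genes of at least 100 CPM it was 0.73 and 2.24. The added 1 in log2(CPM + 1) understates the gains of low genes in both RNAi groups. The gain in atm(RNAi) was 1.47% of that in unc-22(RNAi) in the lowest class and 35.2% in the highest, both as medians. The classes were cut on a level that the gain itself raises, and the limit of 200 kept only genes whose gains differed by at least 1.07, so a small gain in unc-22(RNAi) comes with a gain near 0 in atm(RNAi) by the choice of genes.

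**Figure D4:**
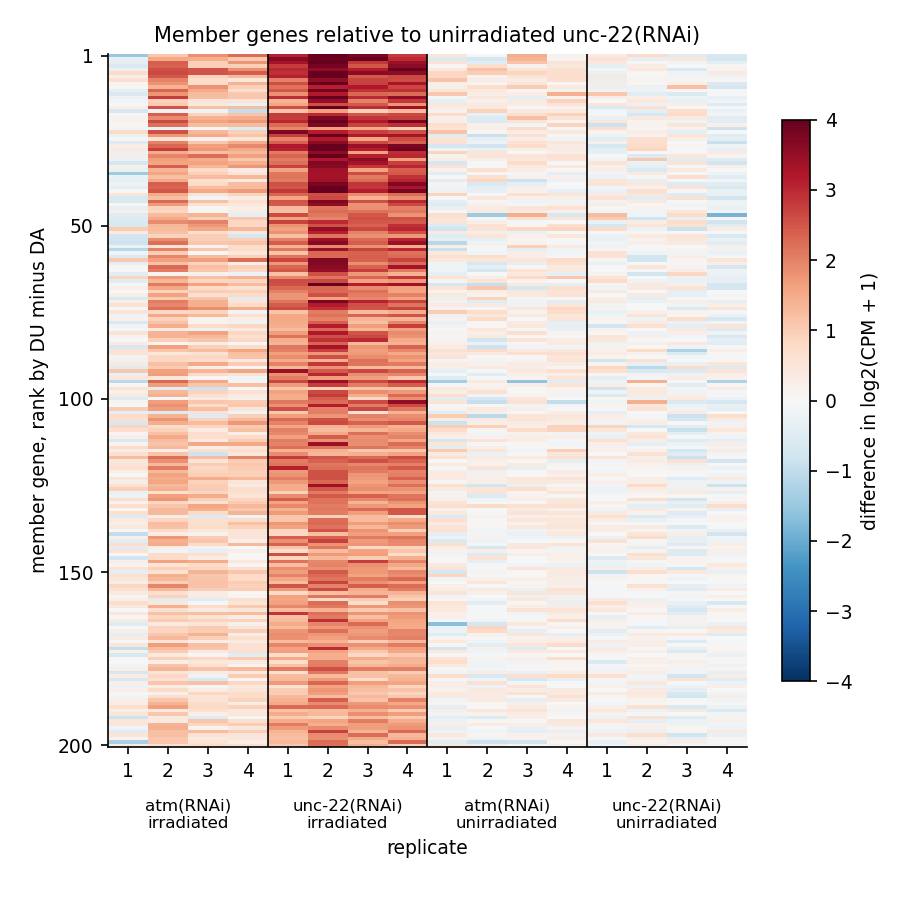
Level of each of the 200 genes in the 16 libraries as log2(CPM + 1), relative to the gene's mean over the 4 unirradiated unc-22(RNAi) libraries, one gene a row and one library a column. The irradiated unc-22(RNAi) columns are highest in every row by the rule. Irradiated atm(RNAi) replicate 2 is the highest of its group in 139 genes and replicate 1 the lowest in 166.

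Without irradiation the groups lay close. The difference of unirradiated atm(RNAi) over unirradiated unc-22(RNAi) had a median of 0.19 over the 200 genes, with 150 of them (75%) above 0. Of all genes over the floor 58.5% were above 0, with a median of 0.04. Of the other 2041 genes higher after irradiation in unc-22(RNAi), 64.7% were above 0, with a median of 0.09. All 4 unirradiated atm(RNAi) libraries were above all 4 unirradiated unc-22(RNAi) libraries in 5 genes (2.5%), where 1.82% of all genes over the floor were, and all 4 below in 0. In edgeR, at an adjusted p under 0.05, 0 of the 200 genes differed between the unirradiated groups, as did 0% of all tested genes. At an unadjusted p under 0.05 there were 5 of the 200, with the share of all genes not counted, and DESeq2 also called 0. The higher baseline in atm(RNAi) was a median of 12.5% of the difference between the gains, and it enters the choice because a higher start lowers the gain.

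The 2 genes with the largest difference between the gains were dd_Smed_v6_3871_0_1 and dd_Smed_v6_3065_0_1. dd_Smed_v6_3871_0_1 had 0.138, 5.85, 10.6 and 14.3 CPM in irradiated atm(RNAi), 26.6, 53.3, 43.5 and 21.9 CPM in irradiated unc-22(RNAi), 3.49, 2.23, 8.03 and 2.66 CPM in unirradiated atm(RNAi), and 3.13, 4.59, 1.35 and 1.10 CPM in unirradiated unc-22(RNAi). Irradiated atm(RNAi) ran from below every other library to above all unirradiated ones. Its gain in atm(RNAi) was 0.38 and became 1.19 without replicate 1, beside 3.43 in unc-22(RNAi), and its interaction of -2.77 ± 1.02 (SE, edgeR log2 fold change) was not called.

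dd_Smed_v6_3065_0_1 had 2.07, 10.2, 9.59 and 6.89 CPM in irradiated atm(RNAi), 47.2, 57.3, 60.3 and 29.3 CPM in irradiated unc-22(RNAi), 1.64, 1.41, 8.90 and 3.19 CPM in unirradiated atm(RNAi), and 4.78, 2.07, 4.21 and 1.36 CPM in unirradiated unc-22(RNAi). Its irradiated and unirradiated atm(RNAi) libraries overlapped. The mean was 1.90-fold higher with irradiation in atm(RNAi) and 15.6-fold higher in unc-22(RNAi). The interaction was -2.92 ± 0.76 (SE, edgeR log2 fold change) and was called, but 12 of the 21 other settings, among them the fit without irradiated atm(RNAi) replicate 1, lost the call. The fold change stayed between -3.19 and -2.05 in these settings, with adjusted p-values between 0.00211 and 0.114 (edgeR or DESeq2).

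The 2 genes with the smallest interaction p were expressed more evenly. dd_Smed_v6_2825_0_1 had 33.7, 57.6, 46.6 and 50.4 CPM in irradiated atm(RNAi), 106, 102, 90.7 and 96.9 CPM in irradiated unc-22(RNAi), 30.9, 25.9, 30.8 and 25.8 CPM in unirradiated atm(RNAi), and 24.8, 26.4, 18.8 and 23.1 CPM in unirradiated unc-22(RNAi). The irradiated groups did not overlap with each other, and all irradiated atm(RNAi) libraries were above all unirradiated ones. On the opposite strand this gene had 9.98% of its reads. The edgeR log2 fold change was 0.71 ± 0.14 for irradiation in atm(RNAi), 1.94 ± 0.15 for irradiation in unc-22(RNAi) and -1.23 ± 0.20 for the interaction (SE).

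dd_Smed_v6_1916_0_1 had 52.2, 103, 68.1 and 97.4 CPM in irradiated atm(RNAi), 145, 213, 140 and 159 CPM in irradiated unc-22(RNAi), 54.5, 42.0, 49.0 and 57.9 CPM in unirradiated atm(RNAi), and 44.8, 41.2, 43.1 and 43.3 CPM in unirradiated unc-22(RNAi). Replicate 1 of irradiated atm(RNAi) lay within the unirradiated atm(RNAi) range and the other irradiated atm(RNAi) libraries lay above it. Its edgeR log2 fold change was 0.64 ± 0.16 for irradiation in atm(RNAi), 1.77 ± 0.17 for irradiation in unc-22(RNAi) and -1.13 ± 0.23 for the interaction (SE). The interaction of both genes was called in all 21 other settings, which describes genes picked for their small interaction p.

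The 2 genes with the lowest gain in atm(RNAi) were among the low ones. dd_Smed_v6_10359_0_1 had 1.75, 2.96, 2.89 and 1.24 CPM in irradiated atm(RNAi), 8.29, 12.5, 7.40 and 9.74 CPM in irradiated unc-22(RNAi), 3.95, 7.27, 4.55 and 4.68 CPM in unirradiated atm(RNAi), and 3.03, 2.37, 6.17 and 2.68 CPM in unirradiated unc-22(RNAi). All 4 irradiated atm(RNAi) libraries were below all 4 unirradiated atm(RNAi) ones, the 1 gene of the 200 in which this was so. Its irradiation log2 fold change was -1.25 ± 0.38 in atm(RNAi) and was not called, against 1.24 ± 0.38 in unc-22(RNAi) (SE, edgeR). The interaction of -2.48 ± 0.54 was called in this and the 21 other settings, for a gene picked on its gains.

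dd_Smed_v6_6609_0_1 had 1.70, 1.44, 1.82 and 0.998 CPM in irradiated atm(RNAi), 10.2, 8.30, 7.40 and 4.67 CPM in irradiated unc-22(RNAi), 3.29, 2.33, 4.04 and 1.81 CPM in unirradiated atm(RNAi), and 3.49, 2.02, 2.30 and 0.605 CPM in unirradiated unc-22(RNAi). The irradiated atm(RNAi) libraries overlapped the lower end of both unirradiated groups. Its gain was -0.61 in atm(RNAi), and the interaction of -2.65 ± 0.66 (SE, edgeR log2 fold change) was called. The call was lost in 9 of 21 other settings, the one without irradiated atm(RNAi) replicate 1 among them, while the fold change stayed between -2.98 and -2.32 in all 21.

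The highest-expressed of the 200 genes was dd_Smed_v6_7_0_1. It had 22705, 34202, 37661 and 37174 CPM in irradiated atm(RNAi), 63991, 85719, 59713 and 72217 CPM in irradiated unc-22(RNAi), 16422, 32355, 14983 and 19095 CPM in unirradiated atm(RNAi), and 14041, 19698, 18634 and 24126 CPM in unirradiated unc-22(RNAi). Unirradiated atm(RNAi) replicate 2 lay within the irradiated atm(RNAi) range, so these groups overlapped. The mean with irradiation was 1.59-fold the unirradiated mean in atm(RNAi) and 3.68-fold in unc-22(RNAi), and its interaction of -1.08 ± 0.37 (SE, edgeR log2 fold change) was not called.

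This gene set most of the reads of the 200. Together they took 3.61% ± 0.775 of counted reads in irradiated atm(RNAi), 7.84% ± 1.33 in irradiated unc-22(RNAi), 2.26% ± 0.778 in unirradiated atm(RNAi) and 2.07% ± 0.406 in unirradiated unc-22(RNAi) (SD, n = 4 each). Without dd_Smed_v6_7_0_1 the other genes took 0.313% ± 0.113 in irradiated atm(RNAi), 0.802% ± 0.186 in irradiated unc-22(RNAi), 0.185% ± 0.0179 in unirradiated atm(RNAi) and 0.160% ± 0.0179 in unirradiated unc-22(RNAi) (SD, n = 4 each). With or without it, the irradiated unc-22(RNAi) share was the highest and the irradiated atm(RNAi) share lay between it and both unirradiated ones.

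The second in level, dd_Smed_v6_20_0_1, had 36.98, 247, 115 and 118 CPM in irradiated atm(RNAi), 277, 758, 354 and 466 CPM in irradiated unc-22(RNAi), 43.8, 37.5, 57.4 and 45.7 CPM in unirradiated atm(RNAi), and 45.4, 54.8, 72.8 and 30.6 CPM in unirradiated unc-22(RNAi). Irradiated atm(RNAi) replicate 1 was below all unirradiated atm(RNAi) libraries and replicates 2 to 4 were above all of them. Its irradiation log2 fold change was 1.43 ± 0.38 in atm(RNAi) and 3.0 ± 0.40 in unc-22(RNAi) (SE, edgeR), both called, and its interaction of -1.58 ± 0.53 was not.

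**Figure D5:**
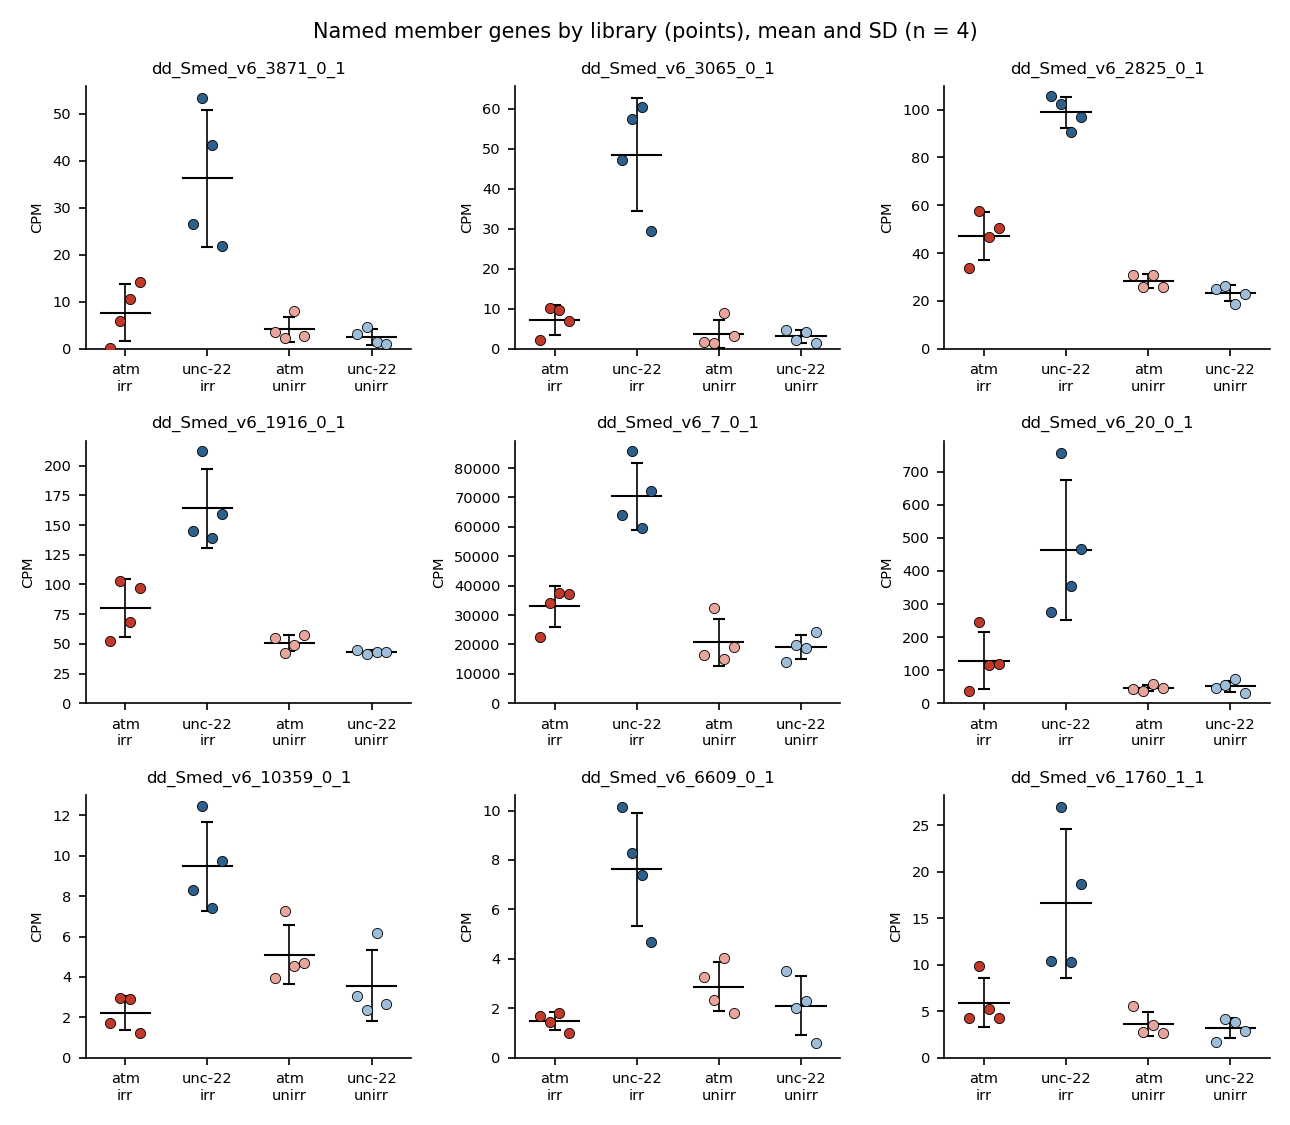
CPM in the 4 libraries of each group for the named genes, as points, with the mean and SD (n = 4) as lines and error bars, on linear axes. Groups run from irradiated atm(RNAi) at the left to unirradiated unc-22(RNAi) at the right. In dd_Smed_v6_2825_0_1 the irradiated atm(RNAi) libraries lie between 33.7 and 57.6 CPM and the irradiated unc-22(RNAi) libraries between 90.7 and 106 CPM, while in dd_Smed_v6_3871_0_1 irradiated atm(RNAi) spans 0.138 to 14.3 CPM.

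The per-library files also count reads on the strand opposite to that of the matrix, which the rule did not use. They come from the same RNA and make up 1.33% to 2.42% of the reads counted in genes, so they are not separate samples. On these reads, scaled on their own totals, edgeR tested 4890 genes, 46 of the 200 among them. With irradiation in unc-22(RNAi), 12 of the 46 rose and 1 fell, or 13 called in either direction, beside 6.97% of all genes tested on this strand. A gene had to pass a filter on these reads to be tested, and some of the 46 could pass it only through irradiated unc-22(RNAi), where they were high, so the count over the 46 supports nothing about the 200. Without the filter, 184 of the 200 genes had reads on this strand. Of these 184, 138 had a positive log2 fold change with irradiation in unc-22(RNAi), where the median over all genes fitted was 0. The share of positive values over all genes was not counted. Over the 46 genes the median log2 fold change was 1.92 on this strand and 1.92 on the sense strand. Whether the opposite-strand reads are independent of the sense reads was not tested, so nothing is read from the 138. In the fit without the filter 10 rose and 1 fell, where 356 of all 17801 genes fitted were called in either direction.

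Between irradiated atm(RNAi) and irradiated unc-22(RNAi), 1 of the 46 genes was called on the opposite strand, lower in atm(RNAi), beside 0.552% of all genes tested. Without the filter 1 of 184 was called, beside 56 of all 17801 genes fitted, so nothing is read from this count. Of the 184, 44 had a positive log2 fold change, where the median over all genes fitted was 0.01. For the interaction 0 of the 46 were called by edgeR, beside 0.0409% of all genes tested. At an unadjusted p under 0.05 there were 4 of the 46. The share of all genes at that p was not counted, so nothing is read from the 4. Without the filter 1 of 184 was called, negative, beside 7 called negative of all 17801 genes fitted. Of the 184, 54 were positive, where the median over all genes fitted was 0.32. The share of positive values over all genes was not counted for these contrasts either, so nothing is read from the signs. With the filter, counts moved with single libraries, and so did the genes tested. For irradiation in unc-22(RNAi) 6 were called without irradiated unc-22(RNAi) replicate 2, beside 235 of all tested. Without unirradiated unc-22(RNAi) replicate 2, 3 or 4 it was 7, beside 228, 225 and 155 of all tested. Between the irradiated groups 0 were called without irradiated atm(RNAi) replicate 1, beside 8 of all tested. Without irradiated unc-22(RNAi) replicate 1 it was 2, beside 150. For the interaction 1 was called without irradiated unc-22(RNAi) replicate 2, beside 5 of all tested.

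The gene called between the irradiated groups was dd_Smed_v6_7_0_1, which had 15952 opposite-strand reads in irradiated atm(RNAi), 25062 in irradiated unc-22(RNAi), 9031 in unirradiated atm(RNAi) and 10988 in unirradiated unc-22(RNAi), summed over 4 libraries each. These were 0.665% of its reads, and the group totals differ in depth as given above. On this strand its log2 fold change was 2.41 ± 0.26 for irradiation in unc-22(RNAi), with an edgeR adjusted p of 5.62e-07. For irradiated atm(RNAi) against irradiated unc-22(RNAi) it was -1.39 ± 0.25, with an edgeR adjusted p of 0.00454.

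dd_Smed_v6_1760_1_1 went the other way on the opposite strand. It had 94.6% of its reads there, with 7089 in irradiated atm(RNAi), 3089 in irradiated unc-22(RNAi), 9854 in unirradiated atm(RNAi) and 10761 in unirradiated unc-22(RNAi), and the log2 fold change with irradiation in unc-22(RNAi) was -0.78 ± 0.24 (edgeR adjusted p 0.0407). Its sense reads, which placed it in the set, gave 4.27, 9.89, 5.26 and 4.32 CPM in irradiated atm(RNAi), 10.4, 26.97, 10.2 and 18.7 CPM in irradiated unc-22(RNAi), 5.55, 2.76, 3.52 and 2.71 CPM in unirradiated atm(RNAi), and 1.75, 4.20, 3.87 and 2.91 CPM in unirradiated unc-22(RNAi). Sense reads gave 2.20 ± 0.38 for irradiation in unc-22(RNAi), opposite in sign to the other strand. It was the 1 gene of the 200 with more opposite than sense reads, and 4 genes (2%) had over 10% of their reads on the opposite strand, beside 2.695% of the other 2041 genes higher after irradiation in unc-22(RNAi) and 4.12% of all genes over the floor. Counting without strand would leave 192 of the 200 genes within the rule, this one not among them.

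More than 1 transcript was counted for 22 of the 200 genes (11%), beside 11.02% of the other 2041 genes higher after irradiation in unc-22(RNAi) and 18.9% of all genes over the floor. In 16 genes at least 2 transcripts had 100 reads or more, and in 14 of these every such transcript was higher after irradiation in unc-22(RNAi) than before. No 2 of the 200 genes shared a component number, the first number of the identifier, and 4 shared one with another gene of the matrix. Reads that map to several places were not counted, so genes with near-identical copies are uncertain.

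The closest set for comparison was the 2041 other genes over the floor that gained at least 1 with irradiation in unc-22(RNAi), with all irradiated above all unirradiated unc-22(RNAi) libraries. The 200 genes made up 8.93% of all genes that met these conditions. Among the 2041, the median gain was 0.80 in atm(RNAi) and 1.81 in unc-22(RNAi). The gain in atm(RNAi) was a median of 42.8% of that in unc-22(RNAi), against 26.6% in the 200 genes, and without irradiated atm(RNAi) replicate 1 it was 57.7%, against 37.8%. A smaller gain in atm(RNAi) was thus found in the other genes as well. They too were chosen on a high gain in unc-22(RNAi), which favours a smaller gain in atm(RNAi). Over all genes over the floor, the median difference between the gains was 0.02. The 2041 also hold the 102 genes that only the limit of 200 left out. The rule alone sets how far the 200 lie from the 2041. In the 2041, all irradiated atm(RNAi) libraries were above the unirradiated atm(RNAi) ones in 18.5%, against 16% in the 200.

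The spread of a gene within a group, as the SD of log2(CPM + 1) over its 4 libraries, had a median of 0.52 in irradiated atm(RNAi), 0.42 in irradiated unc-22(RNAi), 0.31 in unirradiated atm(RNAi) and 0.38 in unirradiated unc-22(RNAi) for the 200 genes. For the other 2041 it was 0.78, 0.66, 0.30 and 0.37 in the same order. The 200 genes were thus less variable than the others in both irradiated groups and close to them in both unirradiated ones. The rule put every irradiated unc-22(RNAi) library above every irradiated atm(RNAi) one, which favours genes with a small spread in both. The 2041 did not have to meet this condition. The size of its part in the difference was not tested, so the lower spread is not read as a trait of the 200.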

How the data were processed

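The authors deposited raw read counts per gene in a matrix and, in per-library files, read counts per transcript without strand and on each strand. Per the submitters' processing notes, Trim Galore 0.6.5 and STAR 2.7.9 were used; settings and annotation are not given in the sources used here. Libraries were made with a directional kit, per the labels' protocols. Of the 429328 matrix values, 0 differed from the reverse-strand counts of the per-library files summed over the 41745 transcripts. No lines that name no gene were in the matrix, and 0 columns of other samples were used.

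CPM were computed by column sum and log2 took a pseudocount of 1; gains are differences of group means. Genes were fitted with edgeR 4.0.16 (R 4.3.3; TMM, filterByExpr, 1 coefficient per group, 16 libraries, 12 residual degrees of freedom), with Benjamini-Hochberg adjustment over all tested genes and a threshold of 0.05. DESeq2 1.42.0 was an alternative, and the scripts were tested on simulated data. Intervals from SDs and SEs cover the spread between libraries. Replicate numbers were checked for pairing by the correlation of deviations from group means. Not every pair of same-numbered libraries was correlated over 0.1, so the main fit did not treat them as pairs. The library codes run in blocks by replicate number, and a fit with a replicate block was an alternative. The members and all lists were chosen with earlier results of these data known. Named genes were the 2 with the largest difference between gains, smallest interaction p, highest level, lowest gain in atm(RNAi) and most opposite-strand reads, and the genes next to the limit of 200.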

Additional observations from a re-analysis of the deposited data

Results flagged for a closer look

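In 48 groups of 4 libraries looked at, 2 held a library far from the others, where chance gives about 1 in 20. The share of counted reads taken by the 200 genes was 2.45% in irradiated atm(RNAi) replicate 1, beside 3.88%, 4.07% and 4.03% in the other replicates of that group. The 200 genes' reads on the opposite strand came to 1139 CPM in irradiated unc-22(RNAi) replicate 1, beside 644, 709 and 636 CPM in its group. These were scaled on the sense totals of the matrix. The interaction of knockdown with irradiation was called for 53 of the 200 genes, a count the rule helped to set. Among the named genes it was called for dd_Smed_v6_3065_0_1 at -2.92, dd_Smed_v6_6609_0_1 at -2.65, dd_Smed_v6_10359_0_1 at -2.48, dd_Smed_v6_2825_0_1 at -1.23 and dd_Smed_v6_1916_0_1 at -1.13, as log2 fold changes in edgeR.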

How the results depend on the processing

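The number of genes that met the rule before the limit of 200, which was 302, was 172 when the gain in atm(RNAi) had to be under 0.33 times that in unc-22(RNAi), 1548 in lane 7 alone and 603 in lane 8 alone, and 241 to 991 with 1 library left out at a time (991 without irradiated atm(RNAi) replicate 2, 958 without irradiated unc-22(RNAi) replicate 1). With the stricter share 122 of the 200 genes still met the rule. With DESeq2, 66 of the 200 were called with irradiation in atm(RNAi), of which 65 rose and 1 fell. Of all 17843 tested genes, 1444 rose in that fit. On leaving out 1 library in edgeR, 2 to 81 of the 200 rose, beside 77 to 1520 of all tested genes. Between the irradiated groups 0 of the 200, and 0 of all 15486 tested genes, were called when these were fitted alone. On leaving out 1 library 87 to 144 of the 200 were lower in atm(RNAi), beside 178 to 1122 of all tested genes. The interaction count was 116 with DESeq2, 5 to 90 on leaving out 1 library, and 89 with the replicate block. Over all tested genes 486, 9 to 360, and 323 were called negative in these settings. The replicate block called 38 of the 200 as risen with irradiation in atm(RNAi), beside 578 of all 17843 tested genes. Between the irradiated groups it called 152 as lower in atm(RNAi), beside 1127 of all tested genes. Same-numbered libraries of different groups correlated at -0.07 to 0.43 over 24 pairs, 7 of them over 0.1. Since not every pair was over 0.1, the main fit did not treat the numbers as pairs. A library did correlate best with its own number in 31 of 48 cases, where chance gives 12. The library codes of the labels also run in blocks by replicate number, and the lanes follow these numbers. The numbers may thus be blocks of the design, which the main fit leaves out and the replicate block takes in. On the opposite strand the interaction count was 1 with relative log expression factors and 1 with no filter, beside 2 and 13 of all tested genes. On leaving out 1 library it was 0 to 1, beside 0 to 13. Between the irradiated groups it was then 0 to 2, beside 8 to 150, and for irradiation in unc-22(RNAi) 6 to 14, beside 155 to 592. The cause of these moves was not tested. Relative log expression factors put the median over all tested genes for irradiation in unc-22(RNAi) at a log2 fold change of 0.29, against 0.17 with TMM. The calls of the named genes' interactions were unchanged in 161 of 189 recomputed values, lost in 21, gained in 7 and reversed in 0. Irradiated unc-22(RNAi) had the fewest reads; the effect of depth on low genes was not tested.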
